A study of Mus musculus with 10 samples.

Results

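Cytosolic ribosomal proteins are the protein parts of the ribosome that works outside the mitochondria. Their genes were taken here by name: every symbol of the platform annotation that starts with Rpl or Rps followed by a number, together with Rplp0, Rplp1, Rplp2 and Rpsa, leaving out the kinases of the Rps6k family. The rule found 49 of the 12393 genes that the annotation names, 26 with names of the large subunit and 23 with names of the small subunit. Of these, 42 are core ribosomal proteins, 6 are paralogs (Rpl22l1, Rpl39l, Rpl3l, Rpl7l1, Rps27l and Rps4l) and 1 is a pseudogene, Rps15a-ps6. Each gene was read by the probe set with the highest mean over the 10 arrays. A further 102 probe sets carried a ribosomal protein symbol beside other symbols and were not given a gene name, so several core proteins, Rplp1 and Rpl5 among them, have no named value here.

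The arrays compared Fbln1-null embryos, homozygous for a gene trap insertion in Fbln1, with wildtype embryos, both obtained by mating heterozygous carriers and genotyped from yolk sac. Fibulin-1, the product of Fbln1, is a glycoprotein that cells secrete into the extracellular matrix. Hindbrain together with pharyngeal arches 1 to 4 was dissected from mouse embryos at E10.5, and RNA was hybridised to Affymetrix arrays, 5 for Fbln1-null embryos (replicates 3, 4, 5, 7 and 8) and 5 for wildtype embryos (replicates 1 to 5). The labels give neither litter nor strain background, so p-values measure only the spread between these samples. The targeted gene was lower in every null array: the brighter Fbln1 probe set read 2.66 ± 0.13 in null and 4.55 ± 0.50 in wildtype tissue on the log2 scale (SD, n = 5 each). The log2 fold change was -1.88 with an SE of 0.22 (adjusted p = 0.0715 from limma over all 22626 probe sets, exact two-sided permutation p = 0.00794, the smallest that 5 against 5 arrays allow). The null values lie near the floor of the method, so these describe the signal and not the size of the loss, and with values under log2 4 raised to 4 the log2 fold change was -0.58 (limma adjusted p = 0.468).

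Markers of the labelled tissue were present in part. Of the 9 hindbrain genes named on the array, 6 were over the filter used here, a log2 signal over 4 on at least 5 of the 10 arrays, and Hoxb1, Hoxb2 and Egr2 were not. Of those 6, 5 had lower means in null tissue, with a median log2 fold change of -0.32 and Pax6 at -0.52 (limma adjusted p = 0.222), and the list summed to 40.2 to 44.8 in null and 41.6 to 46.8 in wildtype arrays. Of 8 neuron genes, all over the filter, 6 had higher means in null tissue, with a median of 0.11 and Snap25 at 0.46 (limma adjusted p = 0.302), and the list summed to 66.9 to 71.2 in null and 63.7 to 71.1 in wildtype arrays. Of 12 genes of arch mesenchyme and neural crest, 6 were over the filter, and Dlx5, Dlx6, Hand2, Msx1, Sox10 and Alx4 were not. Of those 6, 3 had higher and 3 lower means in null tissue, with a median of 0.02 (6 higher and 0.06 with median or quantile scaling). The list summed to 56.1 to 60.8 in null and 56.3 to 61.6 in wildtype arrays. The 7 cycling-cell genes on the array were all over the filter, with a summed log2 signal of 68.1 to 70.3 in null and 68.9 to 69.6 in wildtype arrays. Of the 7, 2 had higher and 5 lower means in null tissue, with a median of -0.07. Erythroid genes, 4 of 8 over the filter, summed to 49.6 to 54.0 in null and 46.5 to 53.3 in wildtype arrays. Of the 4, 3 had higher and 1 lower means in null tissue, with a median of 0.38 (4 higher and 0.43 with median scaling). The lowest limma adjusted p among them was 0.611. The part of these lists in the values below was not tested. The tissue was measured in bulk, so fewer cells of a type and less RNA per cell cannot be told apart.

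Every ribosome carries a full set of these proteins around its RNAs, and a growing cell makes the set in matched amounts. Most of the messages begin with a run of pyrimidines, the terminal oligopyrimidine (TOP) tract, through which the mTOR kinase and the RNA-binding protein Larp1 control their translation as a group. In mice and humans the loss of a single ribosomal protein can disturb particular tissues, among them blood, pigment cells, the skeleton and the neural crest derivatives of the face, and excess free proteins such as Rpl11 bind Mdm2, the inhibitor of p53.

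The tract by which these messages are known can be read at the annotated start of some of the genes. RefSeq promoter windows of the GRCm38.p6 build, from 250 bases before to 50 bases after the annotated start, were found for 42 of the 49 genes (50 windows). Below are 55 bases of 8 of them, 35 before the annotated start and 20 from it on, 5′ to 3′ on the gene's own strand. Capitals mark a C within 5 bases of the annotated start that is followed by at least 4 more C or T. A longer run of C and T that starts further upstream was marked from its first C in that reach, as in Rpl35. Rpl35, Rpl27a and Rplp2 (large subunit) and Rps6, Rps10 and Rps18 (small subunit) are shown for their tracts, Rpl12 as the gene with the lowest p in the comparison below, and Rpl11 as a gene without such a tract at its annotated start. They lie at chr2:39005112-39005166 (minus strand), chr7:109519160-109519214 (plus), chr7:141447616-141447670 (plus), chr4:86857348-86857402 (minus), chr17:27635225-27635279 (minus), chr17:33955646-33955700 (minus), chr2:32961677-32961731 (plus) and chr4:136053374-136053428 (minus).
Rpl35: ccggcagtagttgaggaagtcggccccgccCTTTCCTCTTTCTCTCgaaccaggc
Rpl27a: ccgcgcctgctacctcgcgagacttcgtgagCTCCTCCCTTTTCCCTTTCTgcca
Rplp2: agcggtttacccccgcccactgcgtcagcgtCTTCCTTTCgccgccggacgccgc
Rps6: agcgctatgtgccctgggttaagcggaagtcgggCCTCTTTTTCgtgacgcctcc
Rps10: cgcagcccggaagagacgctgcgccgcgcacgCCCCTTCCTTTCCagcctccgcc
Rps18: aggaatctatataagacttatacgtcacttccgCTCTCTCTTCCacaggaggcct
Rpl12: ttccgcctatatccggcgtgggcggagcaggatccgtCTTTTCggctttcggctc
Rpl11: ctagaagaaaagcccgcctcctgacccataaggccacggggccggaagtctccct

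Of the 50 windows of ribosomal protein genes, 42.0% (21 windows of 20 genes) held such a tract near the annotated start, against 18.3% of all 32851 windows. The definition of the tract was chosen after the windows had been read. The motif CCGGAAG, which proteins of the ETS family bind, was found on either strand in 42.0% of the ribosomal protein windows, against 8.86% of all windows. Of the sequences above, that of Rpl11 holds it just after the annotated start and that of Rps10 before it. CTTTCC, searched on both strands and overlapping many of the tracts, was found in 46.0% against 26.6%. CTTTTC, which can overlap the tracts too, was found in 24.0% against 21.8%. The E-box CACGTG, known as a site of Myc, was in 10% against 7.15%, and TATAAA in 12% against 13.6%. Over the 21262 windows of protein-coding genes the shares were 18.6% for the tract, 11.6% for CCGGAAG and 25.9% for CTTTCC. They were 20.9% for CTTTTC, 7.84% for CACGTG and 12.6% for TATAAA. All of these matches describe letters and not binding.

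Ribosomal protein signals differed little between the genotypes. The filter kept 44 of the 49 genes, and 0 of the 44 passed an adjusted p of 0.05 in limma, where 0.0204% of all 9801 probe sets over the filter did. At an unadjusted p under 0.05 there were 3, Rpl12, Rpl7l1 and Rps4l, all lower in null tissue. That is 6.82% of the 44, against 12.4% of all probe sets (8.56% lower and 3.84% higher). Groups that did not overlap were found for 1 gene, Rpl12, or 2.27%, against 2.77% of all probe sets (1.95% lower). The means of 18 genes were higher and those of 26 lower in null tissue, which compares with 43.1% higher and 56.9% lower over all probe sets. This split turned with the scaling, to 25 higher and 19 lower with each array scaled to its median and 22 of each with quantile scaling, so it gives no direction for the group.

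The median log2 fold change of the 44 genes was -0.03, beside -0.04 over all probe sets. It was 0.02 with median scaling and 0.002 with quantile scaling. The single values ran from -0.58 to 0.21. The absolute log2 fold change was over 0.25 for 3 of the 44 genes, against 29.3% of all probe sets. Most of these genes gave strong signal, with a mean over log2 10 for 37 and over log2 12 for 30, and values spread less at strong signal on these arrays. At a mean over log2 10 the absolute log2 fold change was over 0.25 for 0 of the 37 genes, against 154 of all 1032 probe sets. Of all 232 probe sets over log2 12, 10 had such a value. Of the 37 genes with a mean over log2 10, 0 had an unadjusted p under 0.05 in limma, against 8.53% of the 891 probe sets of that signal that carry no ribosomal protein symbol. Over log2 12 the share among 120 such probe sets was 5%. Whether signal near the top of the scale was compressed was not tested.

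**Figure D1:**
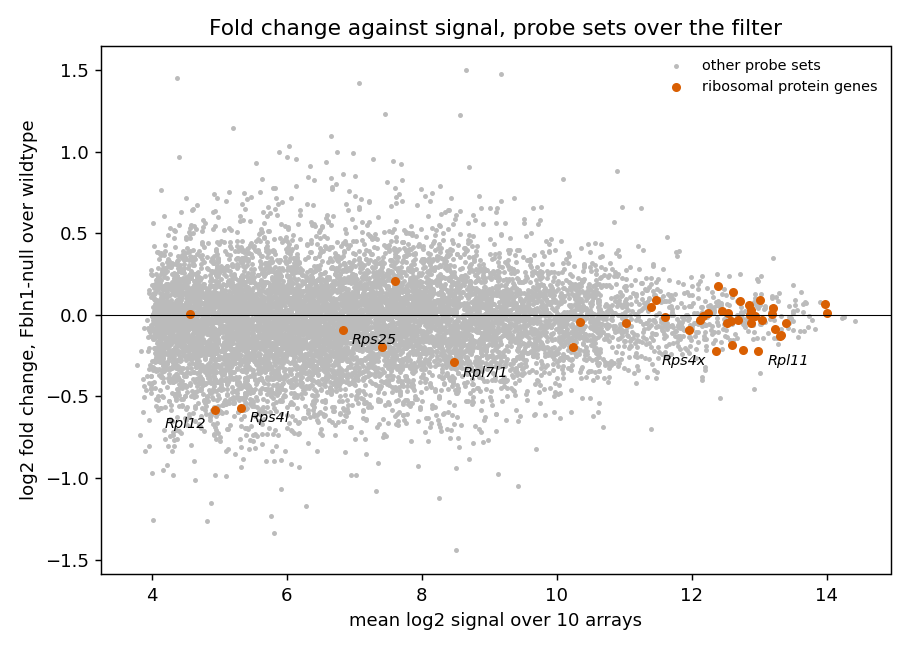
Log2 fold change, Fbln1-null over wildtype, against the mean log2 signal over the 10 arrays, with 1 point per probe set over the filter. The ribosomal protein genes (orange) lie mostly at the strong-signal end, between -0.22 and 0.18 where the mean is over log2 10, and the values furthest below 0 are those of Rpl12 and Rps4l at weak signal.

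The intervals show what the arrays could have missed. With unadjusted 95% intervals from limma, the log2 fold change lay within 1.5-fold either way for 40 of the 44 genes and within 2-fold for 42. The 4 genes not held within 1.5-fold were Rpl12, Rplp2, Rps25 and Rps4l. For Rps25 and Rps4l the interval also passed 2-fold.

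**Figure D2:**
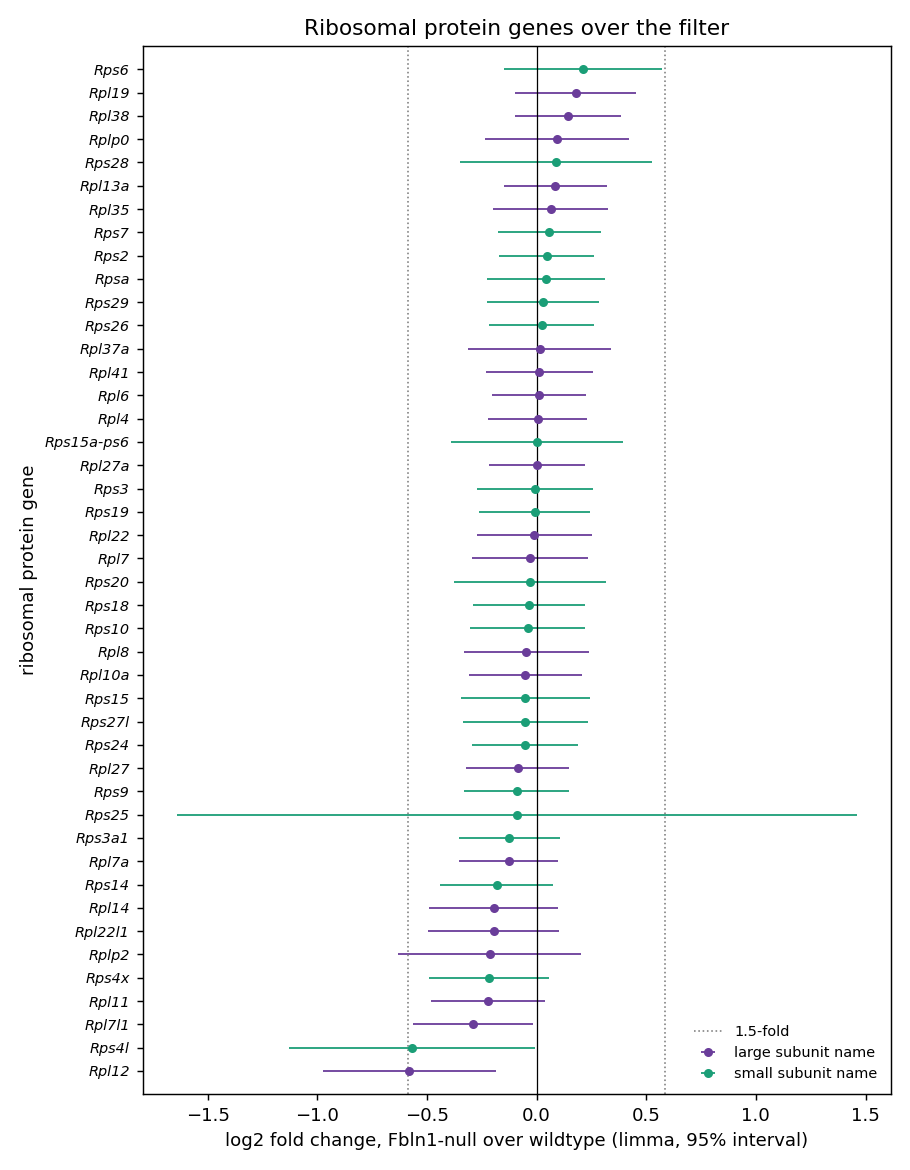
Log2 fold change, Fbln1-null over wildtype, of the 44 ribosomal protein genes over the filter with unadjusted 95% limma intervals, in order of the fold change (purple, large subunit names; green, small subunit names). Dotted lines mark 1.5-fold either way, and 40 of the 44 intervals lie between them.

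Among the large subunit genes, 10 of the 22 over the filter had higher and 12 had lower means in null tissue (12 higher and 10 lower with median scaling), with a median log2 fold change of -0.02. Rpl12, a protein at the base of the stalk where translation factors bind, had the lowest p of all. Its log2 signal was 4.33, 4.15, 5.01, 4.92 and 4.84 in Fbln1-null arrays, against 5.53, 5.05, 5.18, 5.10 and 5.29 in wildtype arrays. All null arrays were below all wildtype arrays, but null replicate 5 and wildtype replicate 2 were separated by only a small step. The means were 4.65 ± 0.38 in null and 5.23 ± 0.19 in wildtype tissue (SD, n = 5 each), a log2 fold change of -0.58 with an SE of 0.18 (limma adjusted p = 0.260), or 1.49-fold lower. The signal is weak, and the array carries no other probe set named for Rpl12 alone.

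The stalk itself is formed by Rplp0 with Rplp1 and Rplp2. Rplp2 read 12.93, 12.71, 12.92, 12.16 and 12.53 in Fbln1-null arrays, against 13.16, 13.13, 12.38, 12.65 and 12.99 in wildtype arrays. The ranges overlap widely, with null replicate 7 lowest and wildtype replicates 1 and 2 highest, and the log2 fold change was -0.21 (SE 0.19). Rplp0, which anchors the stalk, read 11.45, 11.51, 11.90, 11.22 and 11.48 in Fbln1-null arrays, against 11.15, 11.27, 11.43, 11.61 and 11.64 in wildtype arrays. Null replicate 5 was the highest of all 10 arrays and null replicate 7 lay among the low wildtype arrays, so the groups overlapped around a log2 fold change of 0.09.

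Rpl11, which with Rpl5 and the smallest ribosomal RNA binds Mdm2, read 12.69, 12.75, 12.97, 13.03 and 12.92 in Fbln1-null arrays, against 12.87, 13.05, 13.19, 13.13 and 13.24 in wildtype arrays. Null replicates 3 and 4 were the lowest arrays, and wildtype replicate 1 lay below 3 of the null arrays. The means were 12.87 ± 0.14 in null and 13.09 ± 0.14 in wildtype tissue (SD, n = 5 each), a log2 fold change of -0.22 with an SE of 0.12 (limma adjusted p = 0.490). It did not pass the threshold.

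At the tunnel through which the new protein leaves, 3 of 8 listed genes were over the filter, and the mean of each was higher in null tissue by a small amount that did not pass the test. Rpl19, at the rim of the tunnel, read 12.49, 12.49, 12.50, 12.49 and 12.39 in Fbln1-null arrays, against 12.27, 12.55, 12.12, 12.03 and 12.49 in wildtype arrays. The null arrays lay close together while wildtype replicates 1, 3 and 4 were lower than all of them, and wildtype replicates 2 and 5 were as high as the null arrays. The log2 fold change of 0.18 with an SE of 0.13 (limma adjusted p = 0.611) did not pass the threshold, and it was 0.11 without wildtype replicate 4. Rpl35, also at the rim, had a log2 fold change of 0.06, which was -0.011 without wildtype replicate 4, and that of Rpl4, which lines the tunnel, was 0.01.

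Rpl38, whose loss in the Tail-short mouse alters the skeleton and the translation of Hox messages, read 12.59, 12.70, 12.59, 12.87 and 12.63 in Fbln1-null arrays, against 12.52, 12.53, 12.63, 12.37 and 12.64 in wildtype arrays. Null replicate 7 was the highest array and wildtype replicate 4 the lowest, and the other arrays overlapped. The log2 fold change of 0.14 with an SE of 0.11 (limma adjusted p = 0.656) did not pass the threshold. Rpl27a, mutated in the Sooty foot ataxia mouse, had a log2 fold change of 0.002, with 12.90, 12.86, 12.75, 12.93 and 12.88 in Fbln1-null arrays, against 12.87, 12.91, 12.86, 12.77 and 12.90 in wildtype arrays. No array stood apart by more than a small step.

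Other large subunit genes also had small differences. Rpl14 had a log2 fold change of -0.19 and Rpl7a one of -0.13, and Rpl13a, which also has a role in silencing messages after interferon, had 0.09. Rpl41, the shortest of the proteins, had 0.01 and Rpl27 -0.09. Rpl6 varied least within a genotype among the 44 members over the filter, with a pooled SD of 0.0508. Its log2 signal was 12.33, 12.23, 12.24, 12.26 and 12.17 in Fbln1-null arrays, against 12.28, 12.26, 12.23, 12.17 and 12.24 in wildtype arrays. Both genotypes covered almost the same narrow range, and the log2 fold change was 0.01.

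**Figure D3:**
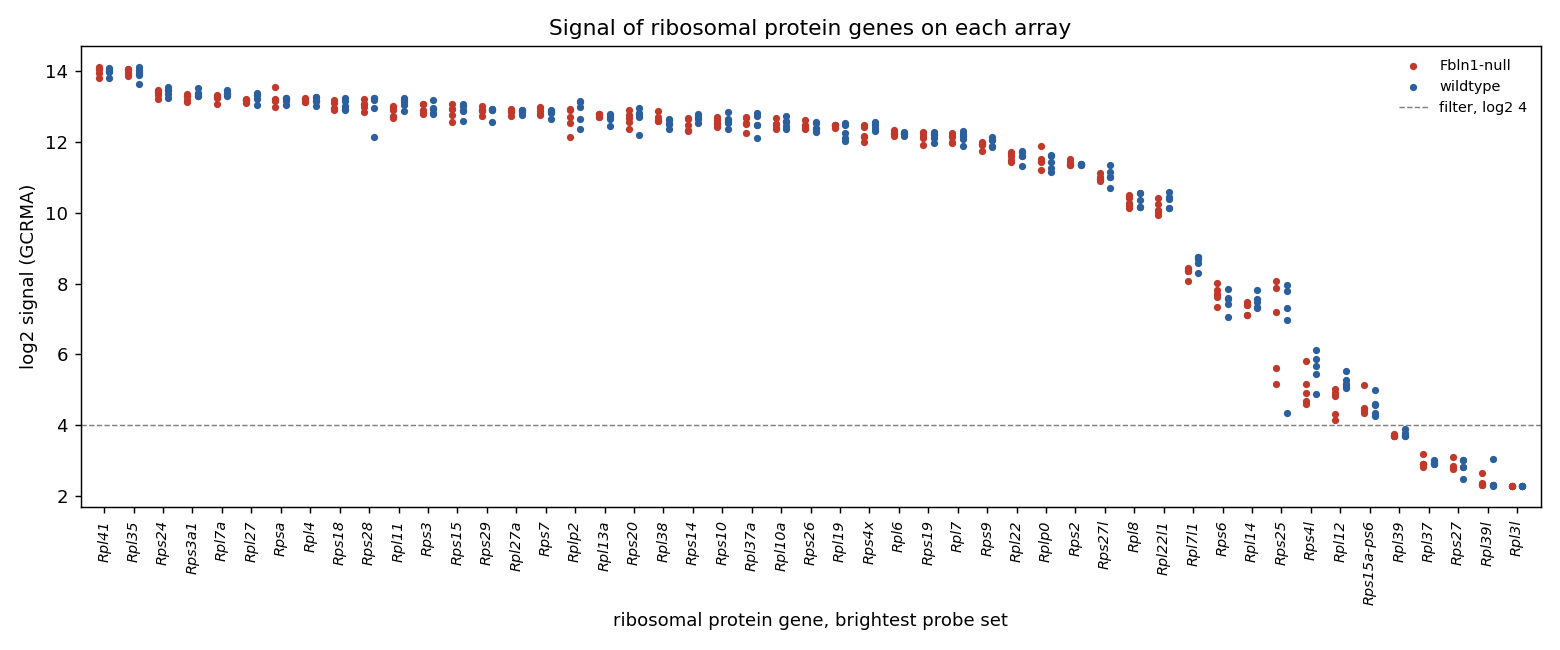
Log2 signal of the 49 ribosomal protein genes on each array, with 1 point per array, Fbln1-null (red) left of wildtype (blue) for each gene, and a dashed line at the filter of log2 4. Of the 44 genes over the filter the groups are apart only for Rpl12, with null arrays at 4.15 to 5.01 and wildtype arrays at 5.05 to 5.53.

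Among the small subunit genes, 8 of the 22 over the filter had higher and 14 had lower means in null tissue (13 higher and 9 lower with median scaling), with a median log2 fold change of -0.03. Of 14 listed proteins of the head of the small subunit, 9 were over the filter, 2 with higher and 7 with lower means, and 0 passed the test. The split was 7 higher and 2 lower with median scaling and 4 higher and 5 lower with quantile scaling. Their median log2 fold change was -0.03 and their values ran from -0.09 to 0.09. Rps19, the protein most often mutated in Diamond-Blackfan anaemia in humans, read 12.13, 12.27, 12.29, 12.17 and 11.93 in Fbln1-null arrays, against 12.13, 12.21, 12.28, 11.97 and 12.24 in wildtype arrays. Null replicate 8 and wildtype replicate 4 were the low arrays of their groups, and the log2 fold change was -0.01 (SE 0.12).

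Rps28, a small protein of the head, read 13.09, 13.22, 12.99, 13.09 and 12.84 in Fbln1-null arrays, against 13.18, 13.25, 12.97, 12.13 and 13.25 in wildtype arrays. Wildtype replicate 4 lay far below every other array, and the log2 fold change of 0.09 became -0.12 without it. Rps25, which some viral messages need for translation, was the most variable member, with a pooled SD of 1.40. It read 7.19, 8.08, 7.89, 5.16 and 5.61 in Fbln1-null arrays, against 7.96, 7.78, 7.31, 6.98 and 4.35 in wildtype arrays. Null replicates 7 and 8 and wildtype replicate 5 were low, and the other arrays of both genotypes overlapped. With a log2 fold change of -0.09 and an SE of 0.71, this probe set says little about Rps25 in either direction.

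Of 9 listed proteins at the entry, platform and exit of the messenger RNA, 6 were over the filter, 3 with higher and 3 with lower means (4 higher and 2 lower with median scaling), and 0 passed. Rps14, a platform protein, had a log2 fold change of -0.18 and Rps3a1 one of -0.12. Rps2 had 0.05 and Rps3, which lies where the message enters, had a value near 0. Rpsa, known also as a laminin receptor, read 13.23, 13.20, 13.55, 13.00 and 13.16 in Fbln1-null arrays, against 13.23, 13.26, 13.04, 13.17 and 13.24 in wildtype arrays. Null replicate 5 was highest and null replicate 7 lowest, with the wildtype arrays between them, and the log2 fold change was 0.04.

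Rps4x, encoded on the X chromosome, read 12.15, 12.43, 11.99, 12.47 and 12.17 in Fbln1-null arrays, against 12.50, 12.54, 12.58, 12.39 and 12.30 in wildtype arrays. Null replicates 3, 5 and 8 were the lowest arrays, and null replicates 4 and 7 lay among the wildtype arrays. The means were 12.24 ± 0.20 in null and 12.46 ± 0.11 in wildtype tissue (SD, n = 5 each), a log2 fold change of -0.22 with an SE of 0.13 (limma adjusted p = 0.521). Wildtype replicate 4, the only array with Xist signal over that of the Y-linked Eif2s3y, was not extreme for Rps4x. Rps4l, an autosomal relative, read 4.90, 4.61, 5.17, 4.69 and 5.81 in Fbln1-null arrays, against 6.13, 5.46, 4.90, 5.86 and 5.66 in wildtype arrays. The groups overlapped, since null replicate 8 was higher than wildtype replicates 2, 3 and 5. The signal was weak and the log2 fold change of -0.57 with an SE of 0.26 (limma adjusted p = 0.396) did not pass the threshold.

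Rps6, the ribosomal substrate of the kinases that mTOR activates, read 7.63, 7.83, 7.72, 8.02 and 7.35 in Fbln1-null arrays, against 7.84, 7.59, 7.56, 7.06 and 7.43 in wildtype arrays. Null replicate 7 was highest and wildtype replicate 4 lowest, with the other arrays overlapping, and the log2 fold change was 0.21 with all arrays and 0.10 without wildtype replicate 4. It did not pass the threshold (limma adjusted p = 0.659 with all arrays).

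Of 18 listed genes known to be mutated in Diamond-Blackfan anaemia in humans, 10 were over the filter. Of these, 5 had higher and 5 lower means in null tissue, 0 passed, and the median log2 fold change was 0.01 (7 higher, 3 lower and 0.05 with median scaling). The furthest from 0 was Rpl11, described above. Rps24 had -0.05, Rps10 -0.04, Rps26 0.02 and Rps29 0.03 as log2 fold changes. Of 6 listed genes with mouse mutants that alter development or pigment, 5 were over the filter, 3 with higher and 2 with lower means and 0 passed (5 higher and 0 lower with median or quantile scaling). Rps7 had a log2 fold change of 0.06 and Rps20, a gene of a dark skin mouse, one of -0.03.

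The 4 paralogs over the filter (Rpl7l1, Rps4l, Rpl22l1 and Rps27l) each had lower means in null tissue by the probe set used, also with median and quantile scaling. Of these, 0 passed the adjusted threshold. With the deposited values 56.9% of all probe sets had lower means. Further probe sets of Rpl7l1 and Rps27l went the other way, as given below. The list of paralog pairs, with Rpl7l1, Rpl22l1, Rps27l, Rpl7 and Rpl22 over the filter, had 0 higher and 5 lower means. That split was 2 higher and 3 lower with median or quantile scaling. Rpl7l1, a relative of Rpl7, read 8.09, 8.41, 8.35, 8.35 and 8.44 in Fbln1-null arrays, against 8.76, 8.75, 8.69, 8.31 and 8.58 in wildtype arrays. Wildtype replicate 4 lay among the null arrays, and the other wildtype arrays were higher than all null arrays. The means were 8.33 ± 0.14 in null and 8.62 ± 0.19 in wildtype tissue (SD, n = 5 each), a log2 fold change of -0.29 with an SE of 0.13 (limma adjusted p = 0.377). Its second probe set gave a log2 fold change of 0.16, the opposite direction.

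Rpl22l1, the paralog of Rpl22, had a log2 fold change of -0.20 while Rpl22 itself had -0.01. Rps27l, which p53 is known to induce, had -0.05. The pseudogene Rps15a-ps6 had a log2 fold change near 0 at weak signal. Rpl37, Rpl39, Rps27, Rpl39l and Rpl3l were under the filter and were not tested. Rpl39 had a mean log2 signal of 3.71 in null and 3.76 in wildtype tissue, Rpl37 of 2.94 in both, and Rps27 of 2.86 in null and 2.82 in wildtype tissue. Rpl39l had 2.39 and Rpl3l 2.27 in null tissue, against 2.45 and 2.27 in wildtype tissue. Whether the weak signal of Rpl37, Rpl39 and Rps27, which are core members, reflects the probe sets or the messages was not tested.

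Some genes were read by several probe sets, which share the same RNA and arrays. Beyond the ones used above, 43 probe sets of 19 genes were over the filter, and 0 of them had an unadjusted p under 0.05 in limma. The share was 12.4% over all probe sets, and 8.53% over those with a mean over log2 10 and no ribosomal protein symbol. The direction was that of the chosen probe set in only 25 of the 43. For the 28 with a mean over log2 10, the median gap to the chosen probe set was 0.04 and the largest 0.27 in log2 fold change. Probe sets with a mean under log2 10 departed further, among them the fourth of Rps18 with 0.75 (SE 0.35) and the second of Rps9 with -0.54 (SE 0.59).

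The mean over the 44 genes moved little from array to array, while single genes such as Rps25 and Rps28, described above, moved further. Measured as the mean deviation from each gene's mean over all arrays, null replicates 3, 4, 5, 7 and 8 lay at -0.07, 0.04, 0.00, -0.05 and -0.05. Wildtype replicates 1 to 5 lay at 0.05, 0.10, 0.04, -0.08 and 0.04. The null mean was -0.03 ± 0.05 and the wildtype mean 0.03 ± 0.07 (SD, n = 5 each), a difference of -0.06 with overlapping arrays. Wildtype replicate 4 was the lowest array for 13 of the 37 genes with a mean over log2 10 and the highest for 4. It also had the smallest difference between the 3′ and 5′ actin control probe sets, at 2.0 on the log2 scale, where null arrays had 2.19 to 2.85 and the remaining wildtype arrays 2.27 to 2.38. Without wildtype replicate 4 the median log2 fold change of the members was -0.062 and 0 passed the threshold, and with the actin difference as a covariate it was -0.061 and 0 passed.

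**Figure D4:**
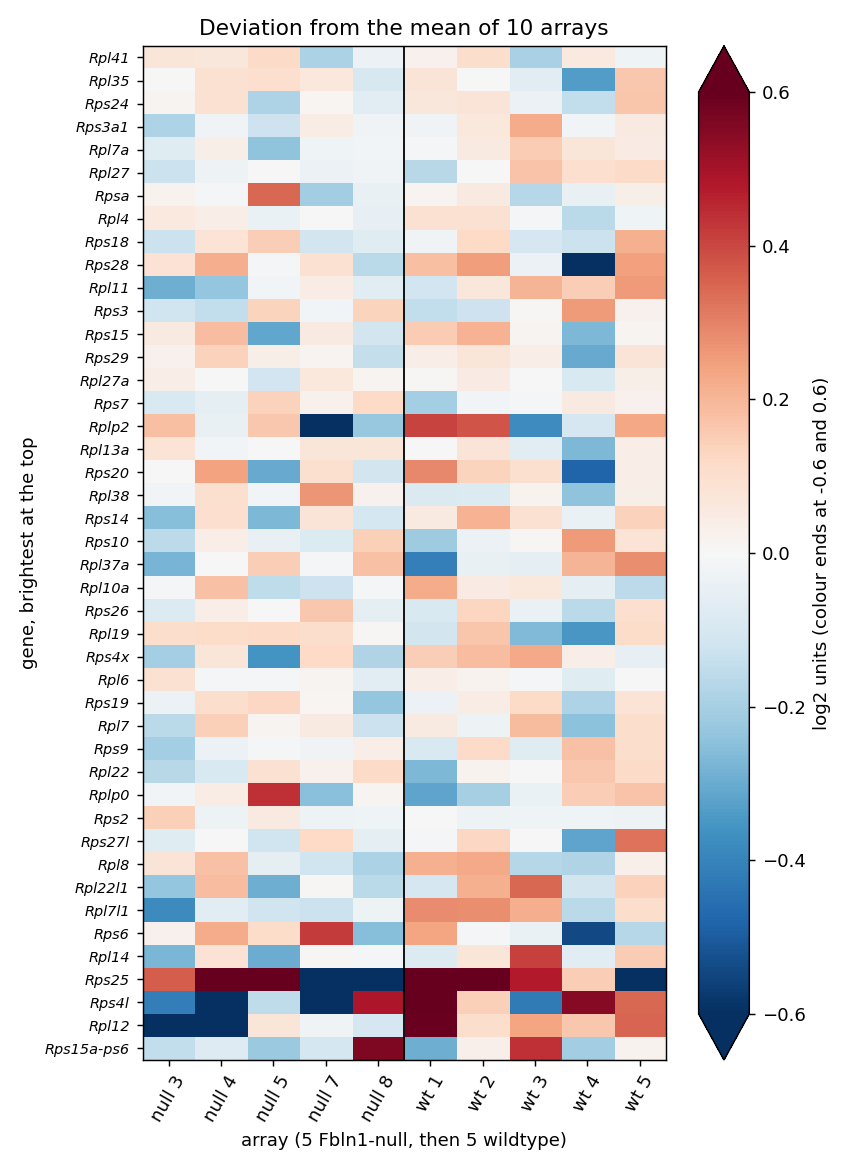
Deviation of each of the 44 ribosomal protein genes (rows) from its own mean over the 10 arrays (columns, Fbln1-null left of the line and wildtype right), as colour on the log2 scale, red above and blue below the mean, with the colours ending at 0.6 either way. The array means lie between -0.08 and 0.10, and wildtype replicate 4 has the lowest mean of the 10 arrays.

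Spread within a genotype was small for the 37 genes with a mean over log2 10, with a median SD of 0.141, or 1.10-fold. It was 0.202 over the 891 other probe sets of that signal. At a mean over log2 12 the difference nearly disappeared, with a median SD of 0.136 for the 30 members and 0.145 for the 120 other probe sets. After removal of the genotype means, pairs among the 37 genes had a median correlation of 0.14 over the 10 arrays, and pairs among the 891 other probe sets had 0.07. At a mean over log2 12 the medians were 0.18 and 0.17. All these genes share the same 10 arrays, and the correlations are a description.

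The genes that build and regulate ribosomes were set beside the ribosomal proteins. Of 72 listed genes of ribosome assembly and pre-rRNA processing, 61 were over the filter, 11 with higher and 50 with lower means in null tissue. Their median log2 fold change was -0.15 (-0.11 with median or quantile scaling, with 45 and 46 lower means), and 0 passed the adjusted threshold, with 9 at an unadjusted p under 0.05 in limma (14.8%, against 12.4% of all probe sets). Rsl1d1, a nucleolar protein, had -0.46 (adjusted p = 0.287), Rsl24d1, which takes part in large subunit assembly, 0.88 (adjusted p = 0.288), and Imp3, of the early small subunit particle, 0.41 (adjusted p = 0.318). Groups that did not overlap were found for 0 of the 61 genes, against 2.77% of all probe sets. Per array, the mean deviation of this list ran from -0.25 to 0.15 in null and from -0.15 to 0.28 in wildtype arrays, so the arrays overlapped.

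Of RNA polymerase I genes, 10 of 14 listed were over the filter, 2 with higher and 8 with lower means and a median of -0.10 (3 higher, 7 lower and -0.056 with median scaling). Among them 1 gene, Taf1d, had groups that did not overlap (10% of the list, against 2.77% of all probe sets). It alone had an unadjusted p under 0.05 in limma, where 12.4% of all probe sets did. The log2 fold change of Taf1d was -0.23 (limma adjusted p = 0.381). Of 12 listed translation factors and other proteins whose messages carry TOP tracts, 11 were over the filter, 4 with higher and 7 with lower means and a median of -0.14. The split was 5 higher and 6 lower with median or quantile scaling, with medians of -0.09 and -0.12. Hnrnpa1, an RNA-binding protein of that list, lay at 11.09 to 11.21 in null and 11.38 to 11.63 in wildtype arrays, with no overlap. Its log2 fold change of -0.38 (SE 0.10) had a limma adjusted p of 0.182. Hnrnpa1 was the 1 gene of that list with groups that did not overlap (9.09%, against 2.77% of all probe sets). It alone of the list had an unadjusted p under 0.05 in limma. Of 17 listed signalling genes, 12 were over the filter, 4 with higher and 8 with lower means (6 of each with median scaling). At an unadjusted p under 0.05 in limma there were 3 (25%, against 12.4% of all probe sets), and 0 had groups that did not overlap. Larp1, which binds the TOP tract, lay at 6.43 to 7.14 in null and 7.10 to 7.84 in wildtype arrays, which is a log2 fold change of -0.72 with an SE of 0.17 (limma adjusted p = 0.120). Eif4ebp2, a repressor of translation that mTOR inactivates, had -0.56 (limma adjusted p = 0.318), and Mycn, a transcription factor that drives ribosome synthesis, had 0.56 (limma adjusted p = 0.334).

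Ribosomal proteins of the mitochondria were named separately by symbols that start with Mrpl or Mrps. Of 74, 70 were over the filter, 23 with higher and 47 with lower means in null tissue, and the median log2 fold change was -0.06 (31 higher, 39 lower and -0.01 with median scaling). None passed the adjusted threshold, and 2 had an unadjusted p under 0.05 in limma (2.86%, against 12.4% of all probe sets), Mrpl44 with -0.61 (adjusted p = 0.116) and Mrps22 with -0.32 (adjusted p = 0.323). For Mrpl44 and Mrps22 the groups also did not overlap (2.86% of the list, against 2.77% of all probe sets). Fau, a cytosolic ribosomal protein whose symbol the naming rule leaves out, had -0.19 (limma adjusted p = 0.520).

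**Figure D5:**
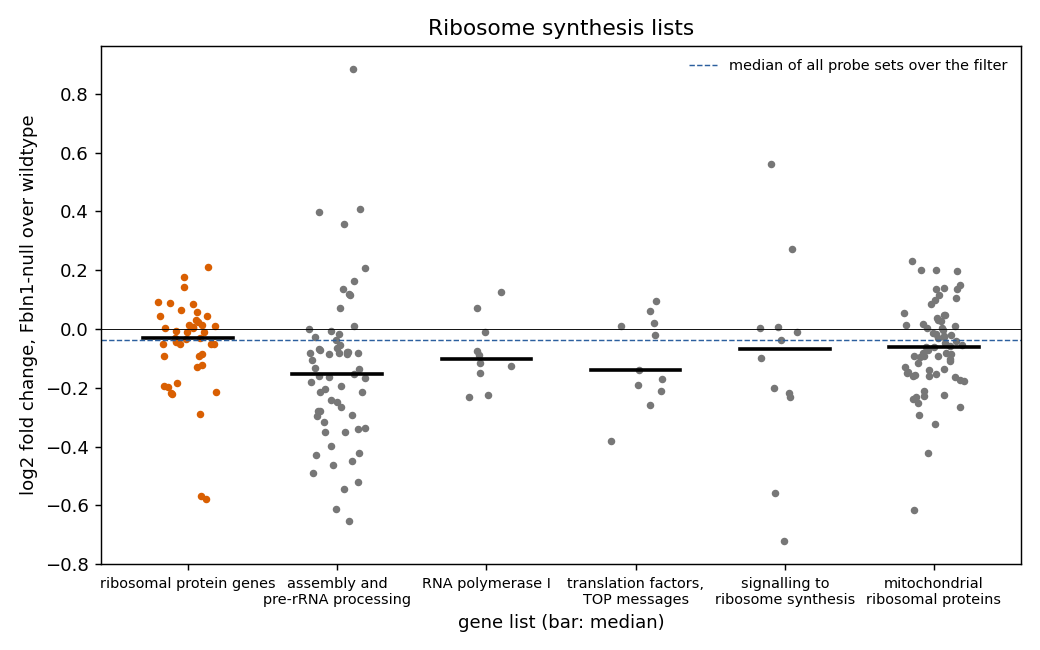
Log2 fold change, Fbln1-null over wildtype, of each gene over the filter in the ribosomal protein set and 5 related lists, with a bar at each median and a dashed line at the median of all probe sets. The medians run from -0.15 for assembly and pre-rRNA processing to -0.03 for the ribosomal proteins.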

How the data were processed

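Total RNA was labelled with biotin by a 3′ IVT kit and hybridised to arrays, per the labels' protocols. The deposited values are log2 signals that the authors computed by GCRMA (per the submitters' processing notes, version not given in the sources used here). This method estimates background from probe sequence and draws weak probe sets towards a floor, which compresses their fold changes. Values ran from 2.22 to 14.83, with array medians of 3.20 to 3.29. The number of arrays limits the precision, and detection calls were not used here.

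Without 64 controls, 22626 of 22690 probe sets remained, and of these 20380 had 1 symbol, 691 several and 1555 none, and only those with 1 symbol were named. All 49 members matched the RefSeq gene table (GRCm38.p6). Of the probe sets that read the members, 12 end in _x_at and 1 in _s_at and can match transcripts of several genes, and 20 end in _a_at, which marks alternative transcripts of a gene. Probe sets over log2 4 on at least 5 arrays were kept, 9801 in all, for 5912 genes.

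Genotypes were compared with limma 3.58.1 in R 4.3.3 (lmFit and eBayes, genotype alone, two-sided, Benjamini-Hochberg over all probe sets kept, threshold 0.05), and the fit was tested on simulated data. Fbln1 was fitted among all 22626 probe sets and compared by an exact permutation test. The members and lists were chosen with earlier results of these data known. Named were the 10 higher and 10 lower members of smallest p, the 3 with the highest and the 3 with the lowest mean, all members under the filter, members of the role groups and the genes with the smallest p in the other lists. Rpl6 and Rps25, the second probe set of Rps9 and the fourth of Rps18 were chosen after their values were seen. Replicate numbers 3, 4 and 5 occur in both genotypes. The labels do not say that the numbers pair embryos, so the arrays were treated as unpaired. Deviations of same-numbered arrays correlated at -0.19, -0.34 and 0.16, and so few numbers cannot decide whether they pair embryos. The settings varied were array weights, scaling, the filter and floor, the variance model, the block, embryo sex, the actin ratio, arrays left out, the probe set read and the threshold. Tables were handled with Python 3.11.15 and pandas 2.3.3.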

Additional observations from a re-analysis of the deposited data

Results flagged for a closer look

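For each member over the filter, and for the mean deviation of the members, the 5 arrays of each genotype were checked for 1 that stood far from the rest, by its gap to the nearest array over the range of the group. Of 90 groups of arrays, 8 held such an array, 3 in Fbln1-null and 5 in wildtype tissue, and chance sets apart about 1 in 20 groups. In null tissue they were Rpl19 in replicate 8 (12.39, the others at 12.49 to 12.50), Rpl7l1 in replicate 3 (8.09, the others at 8.35 to 8.44) and Rps15a-ps6 in replicate 8 (5.13, the others at 4.34 to 4.49). In wildtype tissue they were Rps28 in replicate 4 (12.13, the others at 12.97 to 13.25), Rps29 in replicate 4 (12.57, the others at 12.91 to 12.95) and Rps25 in replicate 5 (4.35, the others at 6.98 to 7.96). Rps7 in wildtype replicate 1 (12.64, the others at 12.83 to 12.90) and Rps2 in wildtype replicate 1 (11.39, the others at 11.36 to 11.37) lay only a small step away.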

How the results depend on the processing

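The count of ribosomal protein genes past the threshold was 0 under all 25 alternatives run except an unadjusted p of 0.05, which gave 3, and the lowest adjusted p of any member was 0.137 (Rpl12 with array weights). Rpl12, which a log2 filter of 6 removes, stayed lower in null tissue in each of the others, with -0.69 to -0.46 and adjusted p of 0.137 to 0.541. The median of the members ran from -0.06 to 0.02 over 25 alternatives, above 0 with median scaling (0.02), quantile scaling (0.002) and the replicate block (0.005). The block on the replicate number gave 0 members, 0 probe sets in all and -1.65 for Fbln1 (adjusted p = 0.416). With the block, the genotype difference rests on replicate numbers 3, 4 and 5 alone. Few residual degrees of freedom remain, so its count of 0 says little. In the pairing check, 1 of 3 shared numbers correlated best with its own number.

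Over all probe sets the main count was 2. It was 1 with no filter, 34 with a log2 filter of 6, 8 with trend and robust variance, 34 with array weights and 0 with the sex covariate, the actin covariate or without wildtype replicates 1 and 2 together. It was 46 at an adjusted p of 0.1, 1215 at an unadjusted p of 0.05, and 0 to 7 with each array left out in turn. Fbln1 passed the threshold with median scaling (-1.84, adjusted p = 0.0473), array weights (-2.04, adjusted p = 0.0421) and without wildtype replicate 3 (-2.06, adjusted p = 0.0173), and ran from -2.06 to -1.74 with each array left out. With values under log2 4 raised to 4 it was -0.58 (adjusted p = 0.468). Its fit has no filter, and it is under a log2 filter of 6, so neither filter setting gave a further value.

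Of 431 alternative values of the named members, 16 changed sign and none of these was past the threshold. Other probe sets gave -0.073 and -0.023 for Rpl13a, -0.12 for Rps7, -0.39 for Rpl35 and 0.16 for Rpl7l1. Since wildtype replicate 4 is the only array with Xist over Y-linked signal, the sex covariate is the same fit as leaving that array out, and both stand in the counts of alternatives. It gave -0.011 for Rpl35 and -0.12 for Rps28, and the actin covariate -0.036 for Rpl35, -0.11 for Rps28 and -0.081 for Rpsa. With each array left out in turn, Rplp0 ran from -0.0051 (without null replicate 5) to 0.167, Rpl35 from -0.011 (without wildtype replicate 4) to 0.112, Rps28 from -0.12 (without wildtype replicate 4) to 0.164 and Rpsa from -0.038 (without null replicate 5) to 0.0998. Rplp0 was at -0.047 without wildtype replicates 1 and 2, and Rps7 at -0.026 with the block. The cause was not tested.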

Other observations

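The 102 probe sets that carry a ribosomal protein symbol beside other symbols were read as a set after the data had been seen. Of these, 95 were over the filter, with means of 4.12 to 14.41 on the log2 scale and 76 of them over log2 10. In null tissue 44 had higher and 51 lower means than in wildtype tissue, with a median log2 fold change of -0.01 and values from -0.64 to 0.53. None passed the adjusted threshold in limma, 5 had an unadjusted p under 0.05 (5.26%, against 12.4% of all probe sets), and 3 had groups that did not overlap (3.16%, against 2.77%).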
